A study of Mus musculus with 4 samples.

Results

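The Id genes and their upstream bone morphogenetic protein (BMP) pathway were followed gene by gene in single cells of the adult mouse dentate gyrus. The 10 genes were chosen by name: Id1, Id2, Id3 and Id4, the ligands Bmp4 and Bmp6, the receptors Bmpr1a and Bmpr2, and the signal transducers Smad1 and Smad6. All 10 were rows of the deposited table of 31557 gene symbols. The cells came from 8 male nestin-GFP mice, whose green fluorescent reporter marks cells by activity of the nestin regulatory sequence and was the basis of the sort. At 2 months of age, 4 mice received 2 µl of a locked nucleic acid, cholesterol-modified antagomir against miR-132 into a lateral ventricle, at 0.33 nmol per ml in artificial cerebrospinal fluid. The other 4 mice received a scrambled locked nucleic acid oligonucleotide in the same fluid, at a dose not given in the sources used here. Cells were collected at 3 months of age from the whole dentate gyrus of each mouse, both hemispheres, and 96 wells per mouse were sorted. Mice 1, 3, 5 and 7 were scrambled controls, and mice 2, 4, 6 and 8 received the antagomir.

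BMP ligands bind a complex of type I receptors, such as Bmpr1a, and type II receptors, such as Bmpr2. The active complex phosphorylates receptor-regulated Smads, Smad1 among them, which enter the nucleus with Smad4 and switch on target genes. The Id genes are among the best known of those targets. Id proteins have a helix-loop-helix domain but no DNA-binding region, and they capture E proteins such as Tcf4 and so keep proneural factors from pairing with them. In the adult hippocampus BMP signalling is known for holding radial glia-like stem cells in quiescence, and in vessels Id1 and Id3 are known as endothelial BMP targets.

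Of 768 wells, 716 had between 500 and 6000 detected genes and were kept, 353 of them from antagomir mice and 363 from scrambled mice. The median well per mouse held between 494347 and 877203 counts, and the counts summed per mouse ran from 43996495 to 69191485. Clusters were named by marker genes, with the 10 genes and the further pathway genes left out of the clustering. The classes were cells like radial glia or astrocytes, called RGL or astrocyte-like (169 cells), neuroblast-like cells (25), oligodendrocyte-like cells (302), endothelial-like cells (87), mural-like cells (82; pericytes and smooth muscle), fibroblast-like cells (12) and an unnamed cluster (39). All 12 RGL or astrocyte markers were counted in at least 25% of the RGL or astrocyte-like cells, and these markers do not separate stem cells from astrocytes. Nes, the gene whose regulation drives the reporter, had counts in 66 of those 169 cells. Oligodendrocyte-like cells made up 42.2% of the kept wells although the sort was for nestin-GFP. Levels are given as counts scaled to 1000000 (CPM) of the class sum in each mouse, for sums of at least 3 cells. They are compared between genes only per kilobase of exon. Whether mice came from separate litters is not stated, so p-values between treatments within a class measure the spread between these animals only. Tests between classes had mouse as a term. Their p-values measure the spread left over after each mouse's own level is taken out.

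The 4 Id genes divided the cell classes between them, as the plot of Id levels by class shows. Id2 was the main Id gene of RGL or astrocyte-like and neuroblast-like cells, Id1 and Id3 were the main Id genes of endothelial-like cells, and Id4 was counted only in RGL or astrocyte-like cells and in the unnamed cluster. Oligodendrocyte-like cells were close to empty of all 4: 282 of 302 had no Id count, and the share with Id2 counts, 3.31%, is the level against which small shares elsewhere are to be read. After thinning each cell to 200000 reads, the shares with Id1, Id2, Id3 and Id4 were 10.1%, 87.9%, 43.0% and 53.0% in RGL or astrocyte-like cells, 20 of which were too shallow to thin. They were 92.3%, 25.6%, 88.5% and 0% in endothelial-like cells, 9 of which were too shallow.

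**Figure D1:**
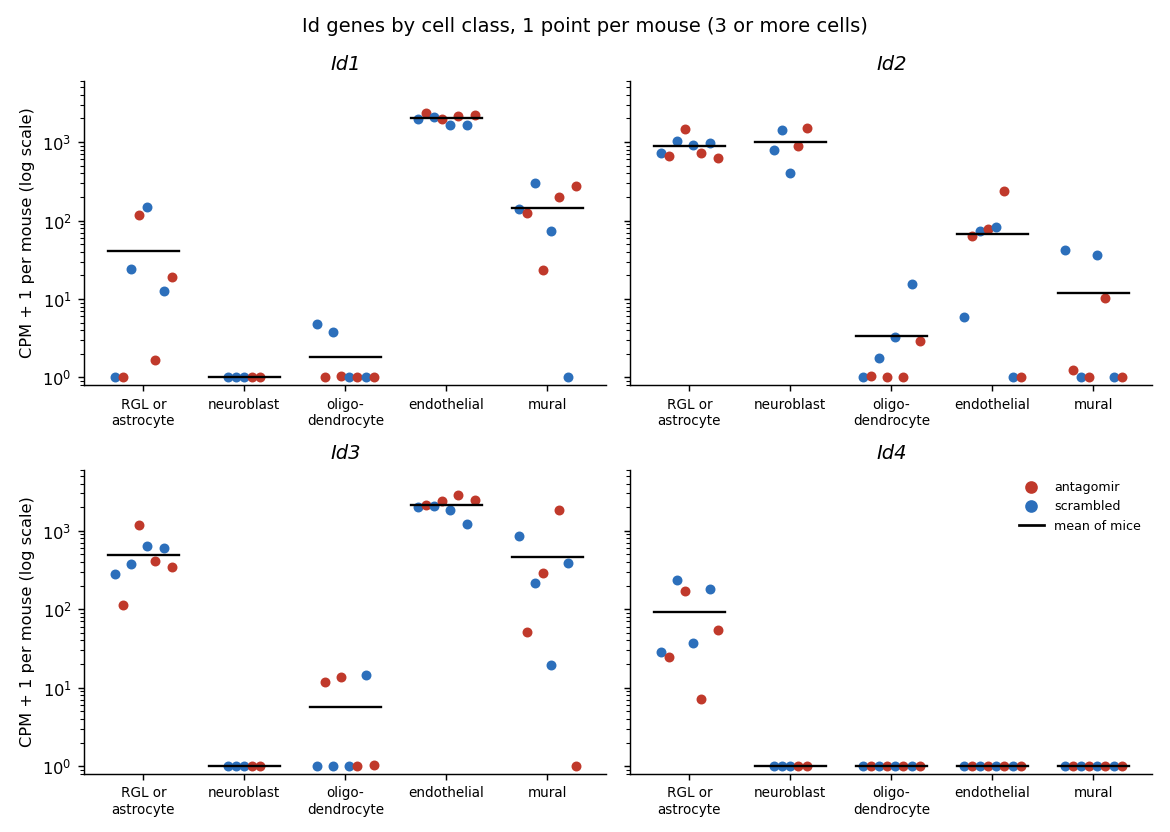
Level of each Id gene by cell class. Each point is 1 mouse (sums of 3 or more cells; red antagomir, blue scrambled) on a log axis of CPM + 1, and the black line is the mean of the mice. Id1 and Id3 sit above 1000 CPM in all 8 mice in endothelial-like cells, and Id4 is above 0 only in RGL or astrocyte-like cells among the 5 classes drawn.

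Id2, which in the brain is tied to progenitor maintenance and to the choice between glial and neuronal fates, was the most evenly expressed Id gene in RGL or astrocyte-like cells. In mice 1 to 8 its level was 719, 661, 1036, 1483, 928, 722, 963 and 628 CPM, with a mean of 892 ± 282 (SD, n = 8). No mouse fell below 628 CPM, and mouse 4, with 39 cells of the class, was the highest. Counts of Id2 were present in 150 of 169 cells (88.8%, 95% Wilson interval 83.1 to 92.7%). In neuroblast-like cells, the young neurons of the lineage, Id2 reached 1007 ± 460 CPM (SD, n = 5), from 405 to 1492 CPM, and 21 of 25 cells (84.0%) carried it. The ranges of these 2 classes overlapped. Endothelial-like cells ran from 0 to 236 CPM with a median of 67.9, mural-like cells from 0 to 41.6 CPM with a median of 0.128, and oligodendrocyte-like cells from 0 to 14.4 CPM with a median of 0.393. The lowest RGL or astrocyte-like mouse was above the highest mouse of each of these 3 classes, while the 3 classes overlapped each other. The intervals on shares cover counting error only, since reads without molecular identifiers are not independent molecules.

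Id3 was less even within RGL or astrocyte-like cells. Mice 1 to 8 had 278, 111, 376, 1168, 633, 407, 601 and 341 CPM, a mean of 489 ± 321 (SD, n = 8). Mouse 4 stood above all others and mouse 2 below all others. Counts were present in 69 of 169 cells (40.8%, interval 33.7 to 48.4%). In cells that had Id3 counts the level ran from 1.18 to 8397 CPM with a median of 659, so the class held both cells without counts and cells with high levels. In endothelial-like cells Id3 was present in 76 of 87 cells (87.4%) and ran from 1207 to 2819 CPM with a median of 2079. Every endothelial-like value exceeded every RGL or astrocyte-like value. Mural-like cells had 0 to 1818 CPM with a median of 253, which overlapped both.

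Id1 was lower still in RGL or astrocyte-like cells and uneven over mice. The 8 mice had 0, 0, 23.4, 116, 146, 0.649, 11.7 and 18.1 CPM, a mean of 39.4 ± 57.6 (SD, n = 8), from 17 of 169 cells (10.1%, interval 6.38 to 15.5%). Mice 4 and 5 carried most of it and 2 mice had none. In endothelial-like cells the 8 mice had 1944, 2362, 2086, 1989, 1671, 2127, 1640.4 and 2203 CPM, a mean of 2003 ± 249.6 (SD, n = 8). These values span a narrow band, mouse 7 being the lowest with only 3 cells, and 75 of 87 cells (86.2%) had Id1 counts. Mural-like cells were between the 2, from 0 to 304 CPM with a median of 130.3, and overlapped the RGL or astrocyte-like range. Per kilobase of exon, endothelial-like cells held 1783 CPM of Id1 and 1204 CPM of Id3 against 26.9 CPM of Id2. On the same scale RGL or astrocyte-like cells held 402 CPM of Id2, 333 of Id3, 40.3 of Id1 and 28.1 of Id4.

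Id4, an Id protein found in quiescent neural stem cells and astrocytes, was low in level but the most restricted in where it was counted. RGL or astrocyte-like mice 1 to 8 had 27.7, 23.9, 234, 169.7, 36.0, 6.17, 182 and 52.9 CPM, a mean of 91.6 ± 88.8 (SD, n = 8). The deposited well table labels mice L5 or L6 in its Project column, called pools here. The 4 mice of pool L6 (3, 4, 7 and 8) were all above the 4 mice of pool L5, in both treatments. What the pool contributes was not tested. Counts of Id4 were present in 88 of 169 cells (52.1%, interval 44.6 to 59.5%). None of 302 oligodendrocyte-like cells had an Id4 count, which allows a share of up to 0.993%, at a median depth of 829783.5 counts per cell against 518584 in RGL or astrocyte-like cells. None of 87 endothelial-like cells had one (up to 3.45%), none of 82 mural-like cells (up to 3.66%) and none of 25 neuroblast-like cells (up to 12%).

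Within single cells the Id genes were counted in different combinations in the 2 classes, as the bar plot of Id genes counted together shows. Among RGL or astrocyte-like cells, 43 had Id2 alone, 40 had Id2 with Id4, and 35 had Id2, Id3 and Id4 together. All 17 cells with Id1 also had Id2, and 16 of them had Id3. Only 14 cells had no Id count. Among endothelial-like cells, 70 of 87 had Id1 and Id3 together, and all 20 cells with Id2 also had Id1.

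**Figure D2:**
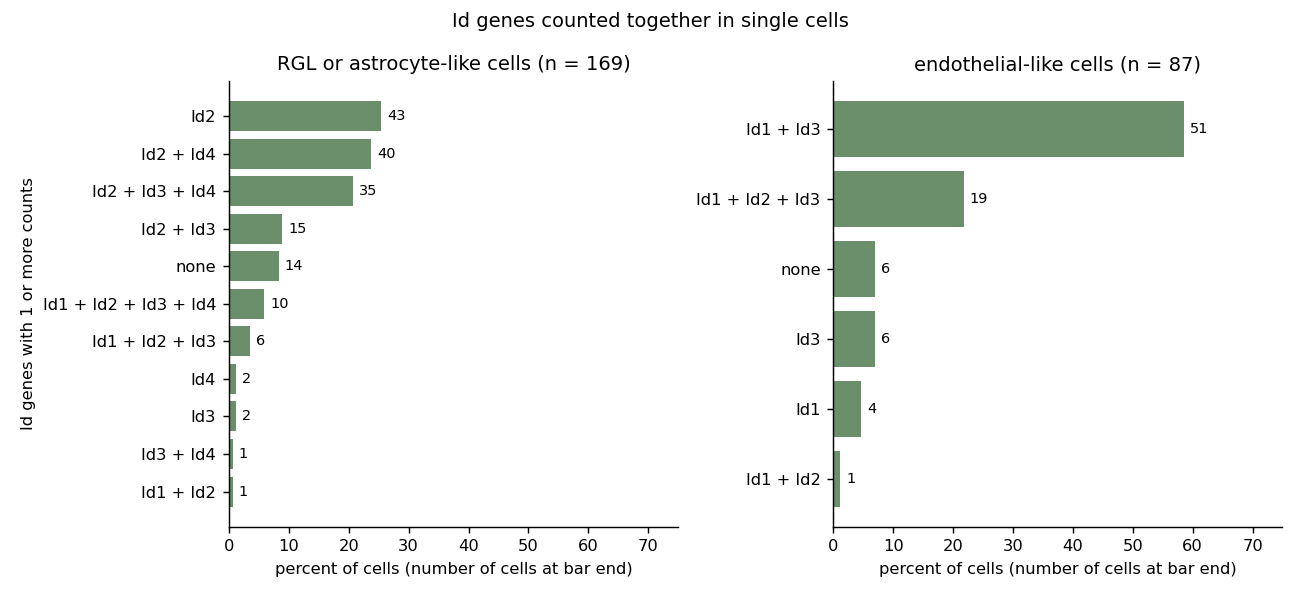
Combinations of Id genes with 1 or more counts in single cells. Bars give the percent of the 169 RGL or astrocyte-like and 87 endothelial-like cells, with the number of cells at the bar end. The leading bars are Id2 alone (43 cells) on the left and Id1 with Id3 without Id2 (51 cells) on the right.

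A stretch upstream of Id4 and one within the longest transcript of Id2, the pair counted together in RGL or astrocyte-like cells, are shown because BMP-activated Smads are known to bind GC-rich elements near Id genes. GGCGCC, in capitals, occurred once in each of their 250-base windows (RefSeq, GRCm38.p6), in those of Bmpr1a and Bmpr2, and in 9.59% of 32851 windows of that length. GGCGTC, searched on both strands, occurred in the windows of Id2, Id3, Bmp6 and Smad1 and in 8.4% of all windows. GTCTAGAC occurred in none of the 9 windows found and in 0.167% of all. Id4 spans chr13:48261228-48266026 on the plus strand, and the stretch shown is chr13:48260866-48261115, upstream of it. Id2 spans chr12:25093799-25097140 on the minus strand, and the stretch shown, chr12:25096254-25096342, is the 89 bases of the RefSeq window that lie outside annotated exons. It is before the start that RefSeq uses and between exons of a longer GENCODE transcript of Id2, so it is intronic by that annotation. Id1 (chr2:152736251-152737410, plus strand) and Id3 (chr4:136143497-136145755, plus strand) are the endothelial pair. A match is a description and not a bound site.
Id4: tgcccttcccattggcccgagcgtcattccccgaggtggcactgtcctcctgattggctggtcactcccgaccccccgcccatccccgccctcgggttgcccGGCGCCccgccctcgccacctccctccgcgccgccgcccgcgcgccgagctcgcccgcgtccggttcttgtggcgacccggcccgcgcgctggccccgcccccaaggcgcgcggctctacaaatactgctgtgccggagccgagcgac
Id2: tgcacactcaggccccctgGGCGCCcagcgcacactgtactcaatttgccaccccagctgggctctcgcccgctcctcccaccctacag

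The RGL or astrocyte-like class held 3 clusters, and the Id genes differed in level between them. Cluster 4 (37 cells, median 881 genes per cell) had 1260.5 CPM of Id3, cluster 6 (87 cells, 3042 genes) had 594 CPM and cluster 8 (45 cells, 2466 genes) had 165 CPM. Id2 followed the same order only in that cluster 8 was lowest, with 1062, 1081 and 649 CPM. Id4 was highest in cluster 8 and lowest in cluster 6, at 117, 90.7 and 150.3 CPM. Cluster 4 had the fewest genes per cell and drew 11 of its 37 cells from mouse 7 and 8 from mouse 4, and what cell depth contributes to these differences was not tested. The 17 cells with Id1 had 2424 CPM of Id3 and 2221 CPM of Id2, against 361 and 819.9 CPM in the 152 cells without it. Endothelial markers came to 0.665 CPM in the cells with Id1 and 2.4 CPM in those without, so their summed level was near 0 in both. Of these markers, Cldn5 had counts in 3 of the 17 cells with Id1 and in 13 of the 152 without. Flt1 had counts in 0 and 5 cells. Gfap, an intermediate filament of astrocytes and radial glia-like stem cells, was at 1297 and 819.5 CPM in these groups. Cells with Nes counts had less Id4 (97.4 against 116 CPM) and Id2 (864 against 1064 CPM) than cells without. They had more Id3 (716 against 509 CPM) and Id1 (55.2 against 40.6 CPM). Id4 was counted in 40 of 66 cells with Nes and in 48 of 103 without, opposite in order to its CPM. All CPM values here come from sums over the cells of each split. These are class-wide sums of cells that share mice, and no test was made between them.

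Across the 37 mouse-by-class sums, Pearson's r of log2(CPM + 1) was 0.724 for Id1 and Id3 and 0.583 for Id2 and Id4. It was 0.308 for Id3 and Id4, 0.12 for Id2 and Id3, -0.076 for Id1 and Id4 and -0.118 for Id1 and Id2. Among 7684 genes averaging over 20 CPM, the closest to Id1 were Gimap6 (r = 0.878), Lgals9 (0.875) and Apold1 (0.873). The closest to Id2 were Gm3764 (0.838), Ezr (0.838) and Gsap (0.835). Rgcc (0.932), Lgals3bp (0.906) and Itih5 (0.898) were closest to Id3, and Gabrg1 (0.96), Adcy2 (0.96) and Plcd4 (0.957) to Id4. These values describe sums that share mice, libraries and classes.

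Of the ligands, Bmp4, a principal BMP of the developing and adult brain, was concentrated in mural-like cells. Mice 1 to 8 had 27.9, 6.12, 223, 107, 439, 303, 109 and 0 CPM in that class, a mean of 152 ± 158 (SD, n = 8). The values covered a wide range, with 7 of 8 mice above 0. All 17 mural-like cells with Bmp4 were among the 74 cells of cluster 5, led by the pericyte genes Abcc9, Kcnj8 and Vtn, and none was among the 8 cells of cluster 10, led by the smooth muscle genes Acta2 and Myh11. Those 8 cells came from 3 mice and are too few to show that Bmp4 is absent from them as a kind. Oligodendrocyte-like cells had Bmp4 in 2 of 302 cells, and RGL or astrocyte-like, endothelial-like and neuroblast-like cells had no Bmp4 count. Bmp6, another BMP ligand, had its counts mainly in fibroblast-like cells (5 of 12 cells, 115 CPM). It was at 0 in 5 of 8 mice in RGL or astrocyte-like cells. In that class 3 cells, all from antagomir mice, held 195 counts between them, of which 192 were in 1 cell of mouse 8.

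**Figure D3:**
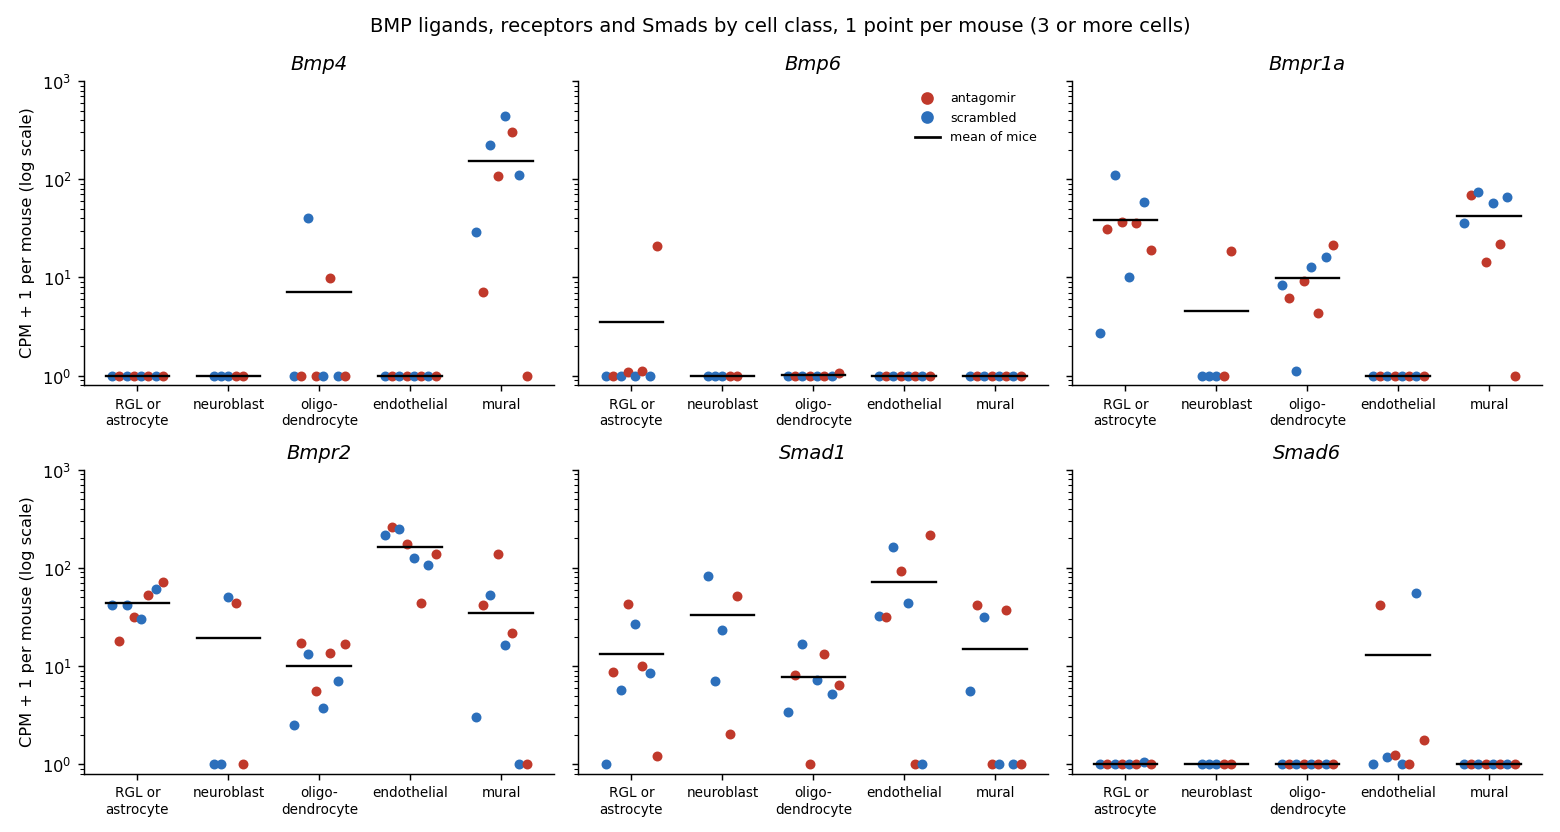
Level of the BMP ligands, receptors and Smads by cell class. Each point is 1 mouse (sums of 3 or more cells; red antagomir, blue scrambled) on a log axis of CPM + 1, and the black line is the mean of the mice. Bmp4 is highest in mural-like cells, Bmpr2 in endothelial-like cells, and Bmpr1a is at 0 in all 8 mice in endothelial-like cells.

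The receptors were spread differently. Bmpr1a, a type I receptor, was at 37.0 ± 33.8 CPM (SD, n = 8) in RGL or astrocyte-like cells, from 1.74 to 109 CPM. In mural-like cells it was at 41.3 ± 27.8 CPM, from 0 to 73.0 CPM, and in oligodendrocyte-like cells at 8.94 ± 6.57 CPM, from 0.104 to 20.3 CPM. These 3 ranges overlapped, whereas no endothelial-like cell of 87 had a Bmpr1a count (up to 3.45%). Bmpr2, the type II receptor, was highest in endothelial-like cells, where mice 1 to 8 had 214, 258, 249, 174, 124, 43.4, 106 and 137 CPM. Its mean there was 163 ± 74.5 (SD, n = 8), and 7 of the 8 mice lay above the highest RGL or astrocyte-like mouse. In RGL or astrocyte-like cells Bmpr2 ran from 17.2 to 70.6 CPM with a median of 40.6.

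Smad1, the receptor-regulated transducer, was low in every class. Its mean was 71.4 ± 78.6 CPM in endothelial-like cells (n = 8), 32.3 ± 33.7 in neuroblast-like cells (n = 5), 14.1 ± 18.4 in mural-like cells, 12.1 ± 14.5 in RGL or astrocyte-like cells and 6.68 ± 5.2 in oligodendrocyte-like cells (n = 8 each, SD). Each spread was about as large as its mean, and all 5 ranges overlapped. Smad6, an inhibitory Smad that is itself a BMP target, was counted in 7 of 87 endothelial-like cells (12 CPM), in 3 cells of the unnamed cluster and in 1 RGL or astrocyte-like cell.

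The differences between classes were tested with edgeR's quasi-likelihood test on the mouse-by-class sums, with mouse as a term and p-values adjusted by Benjamini-Hochberg over all 15144 genes tested. RGL or astrocyte-like cells against oligodendrocyte-like cells asked how the stem cell and astrocyte population differs from the most numerous glia. All 4 Id genes were higher in RGL or astrocyte-like cells, and none of the 8 genes tested of the 10 was called lower. Over all genes, 9.1% were called higher and 6.42% lower. The log2 difference was 9.66 for Id2 (SE 2.07, adjusted p = 0.00102), 7.57 for Id3 (SE 1.70, adjusted p = 0.00206) and 7.08 for Id1 (SE 2.01, adjusted p = 0.014). Id4, with no count in oligodendrocyte-like cells, was at least 8571-fold higher (adjusted p = 0.00394, the floor being 3 counts over the class). Each such "at least", here and below, is a bound on the reads of the cells sorted. Reads are not independent molecules, so 1 further cell with counts could have brought the fold well below it. The receptors and Smad1 did not pass: Bmpr1a had a log2 difference of 2.13 (SE 1.48), Bmpr2 of 2.5 (SE 1.28) and Smad1 of 1.01 (SE 1.74). Bmp4, with no count in RGL or astrocyte-like cells, was at least 216-fold lower there but was not called (adjusted p = 0.118, or 0.0129 without mouse as a term). The median of the 8 genes was 4.79, against -0.05 for all genes. The Id1 call rested on 2 animals, since its adjusted p was 0.0669 without mouse 4 and 0.0626 without mouse 5.

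Against neuroblast-like cells the question was which Id genes separate the stem cell and astrocyte population from the young neurons. Id1, Id3 and Id4 were higher in RGL or astrocyte-like cells, by at least 214-fold (adjusted p = 0.00487), 2734-fold (0.000654) and 495-fold (0.0313), as no neuroblast-like cell had a count of any of them. Id2 did not pass: its fitted log2 difference was 1.10 (SE 1.71, adjusted p = 0.756), while the level over the class was 1.2-fold higher in neuroblast-like cells. Bmpr1a, Bmpr2 and Smad1 did not pass either (adjusted p from 0.0564 to 1.0). Over all genes 11.8% were called higher and 1.65% lower, and the median log2 difference was 1.79, against 7.05 for the 7 genes tested. That 7.05 is the fitted value of Bmpr1a, which was not called and whose level over the class was only 2.08-fold higher. Of the 7, 3 had no neuroblast-like count, so their fitted values have no fixed size. The neuroblast-like class had 25 cells in all, and sums of 3 or more from 5 mice. Id1 had counts in only 17 of 169 RGL or astrocyte-like cells. So few neuroblast-like cells could hold none by sampling at a similar share, so the Id1 fold does not show an absence from that class. With coarser clustering no unnamed cluster was left, and the neuroblast-like class held 59 cells. All 3 calls were then lost (adjusted p = 0.753 for Id1, 0.15 for Id3 and 0.559 for Id4). In the main clustering the unnamed cluster had Id1 in 9, Id3 in 9 and Id4 in 15 of its 39 cells. What those cells contributed to the loss was not tested. The Id4 call was also lost without mouse 1, 3, 5 or 8 (adjusted p from 0.0565 to 0.0712) and under DESeq2 (adjusted p = 0.0625). Bmpr1a, at an adjusted p of 0.0564 here, was called without mouse 8 (0.00641) and under DESeq2 (7.51e-05).

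Against endothelial-like cells the Id genes went in opposite directions. Id1 was lower in RGL or astrocyte-like cells, with a log2 difference of -5.48 (SE 1.64, adjusted p = 0.0146), while Id3 was not called (-1.77, SE 1.25, adjusted p = 0.331). Id4 was at least 1753-fold higher (adjusted p = 0.00443) and Bmpr1a at least 607-fold higher (adjusted p = 0.000106). Id2 was higher by 4.24 on the log2 scale (SE 1.57, adjusted p = 0.0467), a call that was lost when any single mouse was left out (adjusted p from 0.0534 to 0.0918). Bmpr2 (-1.29, SE 1.25) and Smad1 (-1.60, SE 1.84) did not pass. Over all genes 18.1% were called higher and 5.3% lower, so 3 of 7 higher and 1 of 7 lower stand beside a large background, and the all-gene median was 1.55 against -1.29 for the 7.

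Endothelial-like against mural-like cells compared the 2 vascular classes. Bmp4 was lower in endothelial-like cells by at least 2744-fold (adjusted p = 0.00223) and Bmpr1a by at least 682-fold (adjusted p = 0.00024). Id1 had a log2 difference of 4.27 (SE 1.48, adjusted p = 0.069), Id3 of 2.88 (SE 1.43, adjusted p = 0.248) and Bmpr2 of 3.02 (SE 1.40, adjusted p = 0.202). For Id2 it was 3.35 (SE 1.80, adjusted p = 0.299) and for Smad1 2.54 (SE 1.96, adjusted p = 0.51). None of these 5 passed. Over all genes 4.2% were called higher and 4.87% lower, with a median of -0.09 against 2.88 for the 7 genes tested. Under DESeq2 Id1 and Bmpr2 were called as well (adjusted p = 0.0173 and 0.0194). By edgeR Id1 was called without a filter (1.88e-05), without mouse as a term (0.0487) and in wells with 1000 or more genes (0.0467). Id3 (0.0051) and Id2 (0.0259) were called by edgeR without a filter, and Id2 within pool L6 (0.0167). The Bmp4 call was lost within each single pool and day (0.0583 to 0.0973). The Bmpr1a call was lost within pool L6 and the second day (0.0954 and 0.0984).

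The rest of the pathway was read from a list of 48 further genes, 47 of them in the table. Against oligodendrocyte-like cells, 32 were tested, 9 were higher in RGL or astrocyte-like cells and 2 lower, beside 9.1% and 6.42% of all genes. The median log2 difference was 1.10, against -0.05 over all genes. Among receptors and coreceptors, 1 of 8 was higher: Bmpr1b, a second type I receptor, stood at 111 ± 46.7 CPM (SD, n = 8), from 35.9 to 165 CPM, in 80 of 169 RGL or astrocyte-like cells, and at 0.134 ± 0.368 CPM in oligodendrocyte-like cells (adjusted p = 8.22e-05). Per kilobase the class held 19.3 CPM of Bmpr1b and 5.89 CPM of Bmpr1a. Among the brakes on the pathway, 5 of 12 tested were higher, including the pseudoreceptor Bambi (103 ± 54.8 against 0.00508 ± 0.0144 CPM, adjusted p = 0.000196) and the secreted antagonist Chrdl1 (62.5 ± 52.6 against 0.00975 ± 0.0276 CPM, adjusted p = 9.01e-06). The 2 that were lower were Bmp2, a ligand (0 in all 8 mice against 9.99 ± 6.41 CPM, adjusted p = 0.000172), and Smad7, an inhibitory Smad (0 to 1.34 against 12.7 to 56.6 CPM over mice, adjusted p = 0.000529).

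Against neuroblast-like cells 29 list genes were tested, 8 were higher and none lower, beside 11.8% and 1.65% of all genes. The list median was 3.88, or 4.03 with genes at 0 counts in a class set to their bound, against 1.79 over all genes. The 3 with the largest fitted log2 difference were Bmpr1b, Rgma, a BMP coreceptor, and Nbl1, a secreted antagonist, an order that genes at 0 counts leave uncertain. Each had no count in neuroblast-like cells, and they were at least 528-fold (adjusted p = 0.0013), 353-fold (0.000185) and 119.7-fold (0.0018) higher. Tcf4, the most abundant of the E proteins that Id proteins bind, ran from 2691 to 4549 CPM in neuroblast-like cells and from 522 to 971 CPM in RGL or astrocyte-like cells. These ranges did not overlap, but the test did not call it (log2 difference -0.91, SE 0.42, adjusted p = 0.146); it is named outside the rule for naming genes, after its values were seen.

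Against endothelial-like cells 31 list genes were tested, 11 were higher and 4 lower, beside 18.1% and 5.3% of all genes. The list median of 1.39 was below the 1.55 of all genes. Endothelial-like cells held Acvrl1 and Eng, the type I receptor and coreceptor known for endothelial BMP9 and BMP10 signalling, at 1081 ± 641 and 2697 ± 936 CPM (SD, n = 8). In RGL or astrocyte-like cells Acvrl1 had no count and Eng had 0.0183 ± 0.0374 CPM, and both were called lower (adjusted p = 6.89e-06 and 9.14e-13). Skil, a corepressor of Smads, was also lower (1.70 ± 3.23 against 95.3 ± 89.7 CPM, adjusted p = 0.0201). Bmpr1b, Chrdl1 and Rgma were higher in RGL or astrocyte-like cells, by at least 1867-fold (adjusted p = 1.76e-05), at least 898-fold (8.27e-06) and 234-fold (3.04e-05). Of the type I receptors, Bmpr1a and Bmpr1b had no count in 87 endothelial-like cells and Acvrl1 had none in 169 RGL or astrocyte-like cells. Acvr1, another type I receptor, was counted in both, at 31.3 CPM in RGL or astrocyte-like and 12.7 CPM in endothelial-like cells. Its fitted log2 difference was 6.04 (SE 2.02, adjusted p = 0.0273), more than these levels over the class show. Acvr1 is named after its values were seen.

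Between the vascular classes 28 list genes were tested, 4 were higher and 4 lower in endothelial-like cells, beside 4.2% and 4.87% of all genes (median 0.21 against -0.09). Smad7 (24.5 ± 31.8 against 0.0179 ± 0.0506 CPM, adjusted p = 0.00123), Skil (adjusted p = 0.0105) and Acvrl1 (1081 ± 641 against 65.3 ± 84.5 CPM, adjusted p = 0.0255) were the 3 named as higher. Mural-like cells held more Nbl1 (968 ± 515 against 4.92 ± 13.9 CPM, adjusted p = 5.31e-05), more Bmp5, a ligand with no endothelial-like count (at least 797-fold, adjusted p = 0.0246), and more Fstl1, a secreted follistatin-like protein (132 ± 64.7 against 2.3 ± 5.93 CPM, adjusted p = 0.000945).

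The comparison between treatments asked whether the miR-132 antagomir moved the Id genes and their pathway. The library preparation starts from polyadenylated RNA, so mature miR-132 itself was not measured and the knockdown cannot be checked here. The mature strand that the antagomir is directed at is shown with its seed, bases 2 to 8, in capitals. It lies at chr11:75173723-75173744 on the plus strand of GRCm38.p6 (RefSeq).
mmu-miR-132-3p: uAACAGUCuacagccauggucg

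A search of the longest annotated 3′ UTR of each gene (GENCODE, GRCm38) for GACTGTT (opposite bases 2 to 8), for ACTGTTA (opposite bases 2 to 7, then A) and for their union, the 8-letter GACTGTTA, on the transcript strand found a match in 1 of the 10 genes, Bmpr1a, and in 11 of the 48 list genes (22.9%). Among 21020 protein-coding genes 3743 (17.8%) held one. The Id genes held none. The Bmpr1a match and the 2 matches of Bmpr1b, the type I receptor most abundant per kilobase in RGL or astrocyte-like cells, are shown with the matched letters in capitals. They lie in the 3′ UTRs at chr14:34413765-34413794, chr3:141840130-141840159 and chr3:141837369-141837398, all on the minus strand. A match is a description of letters and not a site of action.
Bmpr1a: ccatagacttgGACTGTTttcccccagtca
Bmpr1b, first match: gacacacctcaGACTGTTtgggccagccct
Bmpr1b, second match: ttaacagaactGACTGTTAgagaaactaat

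In RGL or astrocyte-like cells no Id gene and no other gene of the set was called between treatments, as the plot of treated and control mice shows. Of all 10090 genes tested by edgeR, 0.0% were called and 159 had an unadjusted p under 0.05. DESeq2, run without the count filter, called 125 of 22382 genes, none of them among the 10. Id2 was at 661, 1483, 722 and 628 CPM in the antagomir mice and at 719, 1036, 928 and 963 CPM in the scrambled mice. The groups overlapped, and the log2 difference was -0.10 (SE 0.29, 95% interval -0.73 to 0.53, adjusted p = 1.0). Id3 was at 111, 1168, 407 and 341 CPM with the antagomir and at 278, 376, 633 and 601 CPM without. The log2 difference was 0.04 (SE 0.55, interval -1.16 to 1.25), and without mouse 4, the highest, it was -0.73. Id4 was at 23.9, 169.7, 6.17 and 52.9 CPM against 27.7, 234, 36.0 and 182 CPM, which overlap, with a log2 difference of -0.95 (SE 0.93, interval -2.97 to 1.07). Id1 was at 0, 116, 0.649 and 18.1 CPM against 0, 23.4, 146 and 11.7 CPM (-0.53, SE 1.93, interval -4.74 to 3.69).

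**Figure D4:**
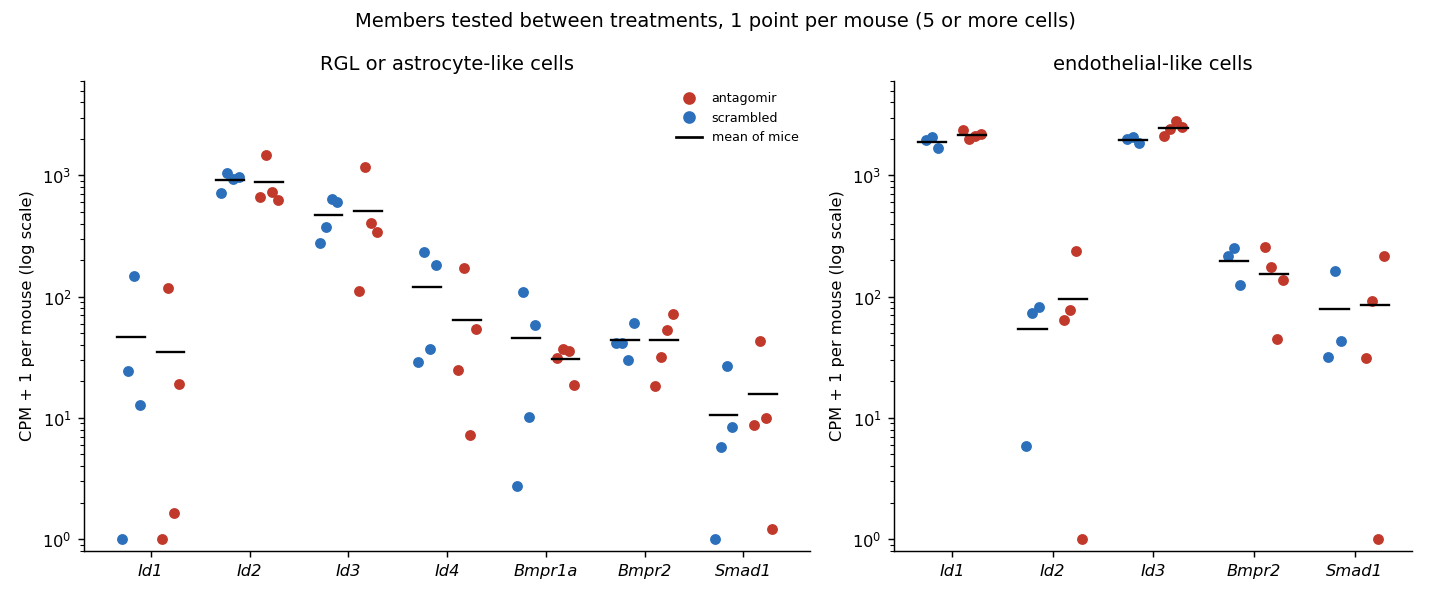
Genes tested between treatments, by mouse. Each point is 1 mouse (sums of 5 or more cells; red antagomir, blue scrambled) on a log axis of CPM + 1, and the black line is the mean of the group. The red and blue points overlap for every gene in RGL or astrocyte-like cells, and only Id3 in endothelial-like cells has groups that do not overlap.

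Bmpr1a, with its seed match, was at 30.4, 35.9, 34.7 and 17.8 CPM in RGL or astrocyte-like cells of antagomir mice and at 1.74, 109, 9.15 and 57.6 CPM in the scrambled mice. The scrambled values enclosed the antagomir values, and the log2 difference was -0.57 (SE 1.10, interval -2.97 to 1.84). Bmpr1b had a log2 difference of -0.24 (SE 0.52, interval -1.38 to 0.89). Bmpr2 was at -0.02 (SE 0.76, interval -1.68 to 1.65) and Smad1 at 0.54 (SE 1.88, interval -3.56 to 4.64), all with adjusted p = 1.0. Of the 7 genes in the plot of treatment effects for this class, Id2 and Id3 had the narrowest intervals. The summed RGL or astrocyte markers ran from 25428 to 29167 CPM in antagomir and from 27835 to 34748 CPM in scrambled mice of this class, and oligodendrocyte markers from 258 to 1288 and from 268 to 425 CPM. The part of these markers in the values was not tested. None of the 7 genes tested had groups that did not overlap, against 2.42% of all genes. Of the pathway list 24 genes were tested and none was called, with a median of -0.23 against 0.02 over all genes.

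**Figure D5:**
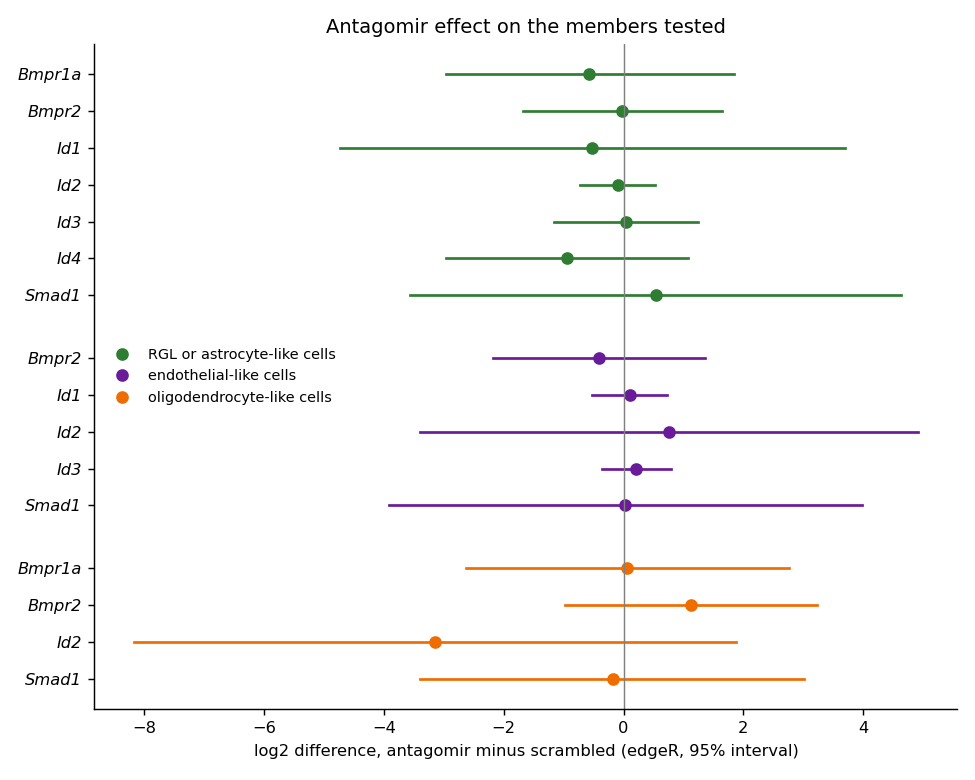
Difference between antagomir and scrambled mice for each gene tested, in RGL or astrocyte-like (green), endothelial-like (purple) and oligodendrocyte-like (orange) cells. Points are edgeR log2 differences and lines their 95% intervals; every interval includes 0, and the narrowest belong to Id3 and Id1 in endothelial-like cells and to Id2 in RGL or astrocyte-like cells.

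In endothelial-like cells, 4 antagomir mice were set against 3 scrambled mice, because scrambled mouse 7 had only 3 cells. Id1 was at 2362, 1989, 2127 and 2203 CPM with the antagomir and at 1944, 2086 and 1671 CPM without, a log2 difference of 0.10 (SE 0.29, interval -0.52 to 0.73). Id3 was at 2105, 2419, 2819 and 2497 CPM against 2005, 2053 and 1862 CPM. The Id3 groups did not overlap, and mouse 7, left out, had 1207 CPM, but the test did not call it: the log2 difference was 0.21 (SE 0.26, interval -0.36 to 0.79, adjusted p = 1.0). Of all 7720 genes tested in this class, 5.16% had groups that did not overlap, and 1 of the 5 tested here is read against that. Bmpr2 had a log2 difference of -0.41 (SE 0.81, interval -2.18 to 1.36), Id2 of 0.76 (SE 1.90) and Smad1 of 0.03 (SE 1.80). edgeR called 0.0% of all genes, and 163 had an unadjusted p under 0.05. DESeq2, run without the count filter, called 236 of 17097 genes, none of them among the 10.

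In oligodendrocyte-like cells only Id2, Bmpr1a, Bmpr2 and Smad1 had enough counts to test. Id2 was at 0.03, 0, 0 and 1.90 CPM with the antagomir and at 0, 0.756, 2.28 and 14.4 CPM without, from 2 of 141 and 8 of 161 cells. The groups overlapped at 0, and the log2 difference of -3.15 had an SE of 2.27 (interval -8.18 to 1.88). Bmpr2 (1.13, SE 0.95), Bmpr1a (0.06, SE 1.21) and Smad1 (-0.18, SE 1.44) did not pass, and all 4 had adjusted p = 1.0. DESeq2, run without the count filter, called 95 of 23701 genes. Over all 10778 genes tested by edgeR, 0.0% were called, 214 had an unadjusted p under 0.05, and 2.19% had groups that did not overlap. None of the 4 did.

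The difference in antagomir effect between RGL or astrocyte-like and oligodendrocyte-like cells was tested itself, for the genes tested in both. It was 3.65 on the log2 scale for Id2 (SE 2.37, interval -1.61 to 8.92), -1.52 for Bmpr2 (SE 1.29), 0.87 for Bmpr1a (SE 2.54) and 0.67 for Smad1 (SE 3.82), and none was called (adjusted p = 1.0). Of 15563 genes tested by edgeR, 0.0% were called and 296 had an unadjusted p under 0.05. DESeq2, run without the count filter, called 308 of 27614 genes.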

How the data were processed

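Cells were processed with Smart-seq2 and Nextera XT, per the labels' protocols. The deposited table holds the authors' raw read counts per gene symbol and well, without molecular identifiers. Per the submitters' processing notes, the build was mm10 and the tools were STAR 2.5.2, featureCounts 1.5.1 (Subread), Seurat 2.3.1 and FastQC. No source used here gives the annotation or the strand setting. Treatment, mouse, sort day and pool come from the deposited well table. Pool stands for the L5 or L6 label in its Project column, a header that does not say what the label marks. The well table holds 4 mice per treatment, as the series' design text does. The labels list 2 samples per treatment, and which sample holds which mice could not be worked out. Library kits of this type do not mark strand, so reads of a gene and of an overlapping antisense gene cannot be told apart.

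Of 768 wells, 36 under 500 and 16 over 6000 detected genes were left out. That upper bound was the only guard against doublets. Wells were scaled to 10000 counts, and 2000 variable genes and 20 principal components were clustered (scanpy 1.11.5, 15 neighbours, Leiden resolution 1) without the 10 genes and the pathway list. A cluster took the name of the marker list with the highest mean log2 fold over the other cells, if at least 3 of that list's markers were each counted in 25% of its cells and no other list had more markers among its top 10 genes. The unnamed cluster scored highest for oligodendrocyte precursor markers, of which 0 reached 25%. Clustering with the 10 genes put 716 of 716 cells in the same class. The names were rebuilt from markers and may differ from the study's own.

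Counts were summed per mouse and class, 3 or more cells for class contrasts and 5 or more for treatment, and tested with edgeR 4.0.16 (R 4.3.3; TMM, filterByExpr, quasi-likelihood F-test), with Benjamini-Hochberg adjustment and a threshold of 0.05. SEs were taken from the log2 difference and its F. Classes with such sums in fewer than 3 mice (fibroblast-like) were dropped from the class fit, which was decided after cell numbers were seen. The unnamed cluster entered no comparison. DESeq2 1.42.0, no filter, blocks, single days and pools, left-out mice, stricter wells, coarser clusters and cells thinned to 200000 reads were the alternatives.

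Those of the 10 genes that were tested are named in each comparison (Bmp6 and Smad6 had too few counts for any), and of the pathway list up to 3 called genes in each direction with the largest log2 difference. The genes, lists and rules were chosen with earlier results of these data known. The test was checked on simulated counts. RefSeq had a promoter entry for 9 of the 10 genes and none for Id1.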

Additional observations from a re-analysis of the deposited data

Results flagged for a closer look

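In 7 of 46 groups of mice examined, 1 mouse stood far from the rest of its group, where chance marks about 1 in 20 groups. That rate need not hold here, as most of the 7 include mice at 0 CPM. The 7 are therefore listed for a closer look and not as an excess over chance. Id1 in RGL or astrocyte-like cells was 116 CPM in mouse 4, against 0 to 18.1 CPM in the other antagomir mice. It was 146 CPM in mouse 5, against 0 to 23.4 CPM in the other scrambled mice. Id2 in the same class was 1483 CPM in mouse 4, against 628 to 722 CPM in the other antagomir mice. Id2 in oligodendrocyte-like cells was 1.9 CPM in mouse 8 (0 to 0.03 in the other antagomir mice) and 14.4 CPM in mouse 7 (0 to 2.28 in the other scrambled mice). Over all 8 mice, Id2 in endothelial-like cells was 236 CPM in mouse 6 (0 to 80.9 in the others) and Bmpr2 in mural-like cells was 139 CPM in mouse 4 (0 to 51.6 in the others).

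Counts above the limit that 0 counts allows were present in cells that entered no comparison. The unnamed cluster of 39 cells, led by Frzb, Hmgb2, Ccnd2, Tnc and Mcm6, held Id1 at 72.9 CPM, Id2 at 136 CPM, Id3 at 132 CPM and Id4 at 61.3 CPM. It was the only group apart from RGL or astrocyte-like cells with Id4 counts, in 15 of 39 cells (38.5%, 95% Wilson interval 24.9 to 54.1%). It also carried 11 of the 12 RGL or astrocyte markers in at least 25% of its cells, at 14746 CPM summed against 28604 CPM in RGL or astrocyte-like cells. In wells with 1000 or more genes a cluster of 34 cells with the same leading genes was named RGL or astrocyte-like. The 12 fibroblast-like cells held Id3 at 1668 CPM, in 11 cells, and Bmp6 at 115 CPM, in 5 cells.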

How the results depend on the processing

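Of the single values recomputed, 695 kept their direction and side of the threshold, 50 fell below it, 14 passed it, 47 changed sign and 2 shares of cells moved. For the counts of called genes, 201 stayed within 1.5 times and 39 did not. The cause was not tested, except that single pools and days hold 4 mice each.

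No count of the 10 genes called between treatments left 0, and the signs of these small differences were not stable. In RGL or astrocyte-like cells, the log2 difference within pool L6 was 1.88 for Id1 and 0.03 for Id2. Within the first sort day it was 2.27 for Id1 and 0.25 for Id2. Within pool L5 it was -0.85 for Id3, 2.54 for Bmpr1a and -0.68 for Smad1, and within the second day -0.76 for Id3, 0.43 for Bmpr2 and -1.93 for Smad1. In endothelial-like cells it was -0.07 for Id1, -1.11 for Id2 and -0.13 for Smad1 within pool L6. Smad1 was there -1.21 within pool L5, -0.78 within the first day, -0.01 without a filter and -1.47 in wells with 1000 or more genes. In oligodendrocyte-like cells Bmpr1a was -1.21 within pool L5 and -0.21 within the second day, and Smad1 1.15 and 0.76. With mice that share sort day and pool as a block, Id3 was -0.37 and Bmpr1a 0.52 in RGL or astrocyte-like cells, Smad1 was -2.16 in endothelial-like cells, and no gene of the set was called. Correlations of such pairs were -0.003 to 0.056 over 11 pairs.

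With each mouse left out in turn, the treatment difference in RGL or astrocyte-like cells ran from -2.85 to 1.49 for Id1, from -0.44 to 0.02 for Id2, from -0.73 to 0.38 for Id3, from -0.97 to 0.32 for Bmpr1a, from -0.4 to 0.25 for Bmpr2 and from -0.79 to 1.81 for Smad1. In endothelial-like cells it ran from -0.22 to 1.23 for Id2 and from -1.08 to 1.05 for Smad1, and in oligodendrocyte-like cells from -0.66 to 0.44 for Bmpr1a and from -0.75 to 0.53 for Smad1. Between RGL or astrocyte-like and neuroblast-like cells Smad1 ran from -1.07 to 1.22, and 5 to 7 list genes were called.

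Within pool L5, pool L6, day 1 and day 2, in that order, most counts of genes called between classes were lower. Against oligodendrocyte-like cells (4 of the 10 genes, 11 of the list) the counts of the 10 were 1, 4, 1 and 2, and of the list 6, 2, 4 and 3. Against neuroblast-like cells (3 and 8) they were 1, 1, 2 and 2, and 3, 0, 1 and 0. Smad1 turned to 1.28 in pool L6 and 0.87 on day 2. Against endothelial-like cells (4 and 15) they were 1, 2, 2 and 1, and 7, 5, 5 and 4. Between vascular classes (2 and 8) they were 1, 1, 1 and 0, and 1 in each. With coarser clusters 0 of the 10 and 1 of the list were called against neuroblast-like cells. DESeq2 called 14 of the list there, 4 of the 10 between vascular classes and 1 list gene for the difference in treatment effect. edgeR without a filter called 5 of the 10 between vascular classes. Over all genes, edgeR tested 15144 and DESeq2, run without the count filter, 30005. They called 2351 and 4726 genes against oligodendrocyte-like, 2043 and 6182 against neuroblast-like, 3536 and 7420 against endothelial-like cells, and 1373 and 5250 between vascular classes.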

Other observations

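The fibroblast-like cells carried more BMP ligands than any other class by count of ligands above 20 CPM. Besides Bmp6, they held Bmp7 at 531 CPM (9 of 12 cells), Bmp5 at 142 CPM (6 of 12) and Bmp2 at 112 CPM (4 of 12). These are 12 cells from 7 mice, with no test.

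In the unnamed cluster, Tcf4 was at 1151 CPM and was counted in all 39 cells, between the 782 CPM of RGL or astrocyte-like cells and the 3202 CPM of neuroblast-like cells. Bambi was at 186 CPM there (14 of 39 cells), against 104 CPM in RGL or astrocyte-like cells and 5.31 CPM in neuroblast-like cells. Bmpr1b was at 17.4 CPM (8 of 39 cells), against 115 and 0 CPM. Mural-like cells of cluster 10, 8 cells from 3 mice led by smooth muscle genes, held 1993 CPM of Id3 in 7 of 8 cells, against 443 CPM in cluster 5.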
